A study of Octopus bimaculoides with 6 samples.

Results

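Of 1771 targets with a non-coding RNA identifier (ENSRNA) among the 40327 annotated targets of *Octopus bimaculoides*, 47 had a deposited TPM of at least 100 in each of 6 RNA libraries. TPM, a measure of transcript abundance, is the number of reads credited to a target, divided by its effective length and scaled to a total of 1000000 per library. The 47 RNAs were selected on these measured TPM values, so their high level is the choice itself and is given below as a description. Of the other 1724 non-coding targets, 83 reached 100 TPM in 1 to 5 libraries and 1641 in none, and 776 were at 0 in every library.

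The 6 libraries were made from rRNA-depleted total RNA, 250 ng each, and sequenced as paired-end reads of 150 bp. The arm libraries came from wild-caught adults: the tip of arm L1, up to 1.5 cm from its end, of the female OB-9 and the male OB-2, and transverse sections of that arm in another male, OB-5, at 1.5 cm (distal), 3.5 cm (medial) and 5.5 cm (proximal) from the tip. The hatchling library was 1 whole animal at 30 days post fertilization. Each condition is 1 library, so no difference below has a replicate check and no test was run. Animal and the piece of arm sampled change together between the tips and the sections, sex also sets the female tip apart from the other arm libraries, and their parts in a difference cannot be told apart. The 3 sections share 1 arm of 1 animal, and hold skin, sucker, muscle and nerve in proportions that were not measured.

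Summed estimated counts were 4895641 in the female tip, 4962432 in the male tip, 3161353 in the distal, 6373192 in the medial, 6524632 in the proximal section and 9081923 in the whole hatchling. All intervals below are 95% Wilson intervals that treat estimated counts as independent reads, and they cover the counting error of reads only. Molecules were not tagged before PCR, so PCR copies of a molecule count as separate reads. Error in how reads were divided among targets is not covered.

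Short structured RNAs that carry no protein code include the small nuclear RNAs of the spliceosome, the RNA of the signal recognition particle, the RNA components of RNase P and RNase MRP, nucleolar guide RNAs and transfer RNAs. In animals many of them are made at high levels in every cell and are encoded by many near-identical gene copies. Removal of rRNA leaves such RNAs in a library, unlike selection for poly(A) tails, and a quantifier divides the reads that match several copies among them. The sources used here pair none of the 1771 identifiers with a class, name or sequence, so the members are called by identifier and annotated length alone. Whether any of them is rRNA left after the depletion could not be told.

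The members held a large part of the libraries when levels were expressed per effective length, but not by reads. Their share of a whole library per annotated length was not computed. They held 61.7% of the TPM of the female tip, 59.3% of the male tip, 61.2% of the distal, 38.6% of the medial, 46.0% of the proximal section and 61.6% of the whole hatchling. Of the estimated counts they held only 9.47%, 11.4%, 10.6%, 4.42%, 5.36% and 9.49% in the same libraries. The medial and proximal sections were lowest on both scales, and the 3 libraries from the arm end lay close to the hatchling.

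Within the non-coding RNAs nearly all signal sat in these 47. Their share of non-coding estimated counts was 96.8% (interval 96.7 to 96.8) in the female tip, 97.2% (97.1 to 97.2) in the male tip, 95.6% (95.5 to 95.7) in the distal section, 98.0% (97.9 to 98.0) in the medial section, 97.5% (97.4 to 97.5) in the proximal section and in the whole hatchling 97.8% (97.8 to 97.8). Their share of non-coding TPM was lowest in the male tip, at 96.3%, and 96.4% in the distal section, and it was 97.1% in the female tip, the medial and proximal sections and the hatchling. The share of the 12 most abundant members alone was 87.5% of non-coding TPM in the female tip, 85.0% in the male tip, 80.1% in the distal, 90.2% in the medial, 86.4% in the proximal section and 90.1% in the whole hatchling. By TPM the distal section thus had the largest remainder outside the leading 12. By counts it was the male tip, where they held 62.1% of non-coding estimated counts, against 68.7% in the distal section.

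Set against protein-coding transcripts, 12 members in the female tip, 13 in the male tip, 20 in the distal, 10 in the medial, 12 in the proximal section and 12 in the whole hatchling exceeded the most abundant coding transcript of that library in TPM. The highest non-coding RNA outside the 47 stood at 746, 1265, 2516, 719, 627 and 1228 TPM in the same libraries. These values lie inside the range of the members, because an RNA that is abundant in some libraries and under 100 TPM in one was not selected.

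The members fell into 3 tiers by mean TPM. There were 12 with a mean of at least 10000, 20 between 1000 and 10000, and 15 under 1000 (plot of the members' levels). The median member stood at 1637 TPM in the female tip, 1977 in the male tip, 3019 in the distal, 843 in the medial, 1590 in the proximal section and 1569 in the whole hatchling.

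**Figure D1:**
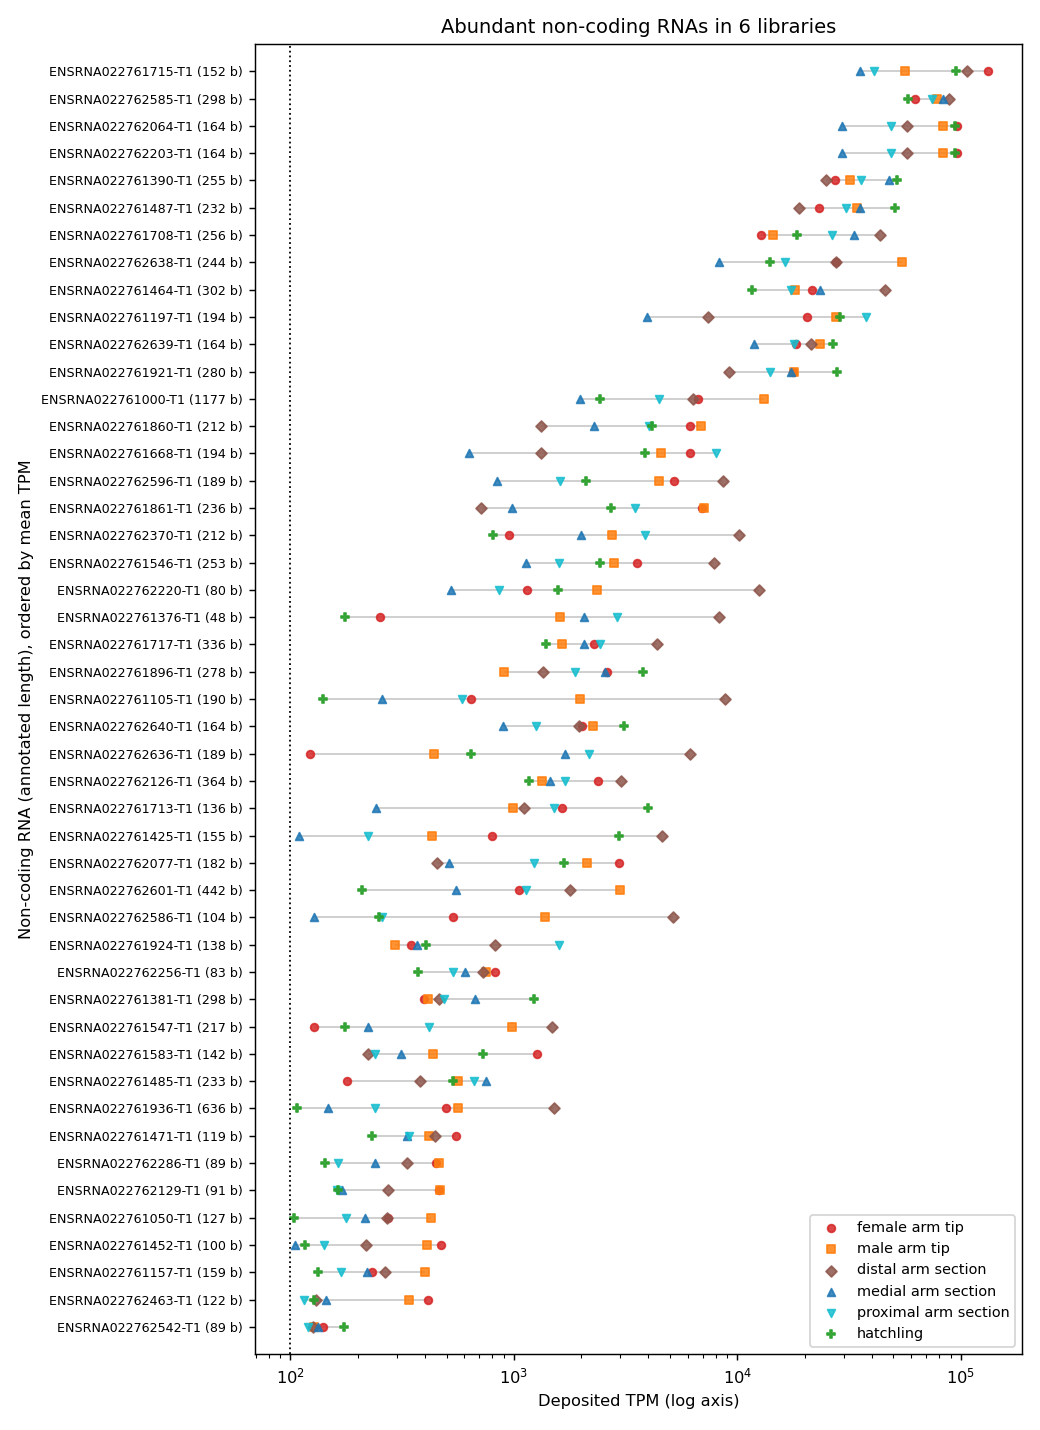
Deposited TPM (log axis) of each of the 47 members in the 6 libraries, 1 row per RNA with its annotated length in bases, ordered by mean TPM; the grey line spans the lowest to the highest library and the dotted line is the minimum of 100 TPM. The means of the top 12 stand apart from those of the rest, though single libraries overlap, and 16 of the 47 rows end on the right with the distal section.

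The RNA with the highest mean TPM was ENSRNA022761715-T1, of 152 bases. It stood at 131831 TPM in the female tip, 56562 in the male tip, 106419 in the distal, 35298 in the medial, 40973 in the proximal section and 95562 in the whole hatchling. It ranked first in the female tip, the distal section and the hatchling and lower in the other libraries, and its level in the female tip was also the highest of any member in any library. By reads it was less prominent, with 32521, 13617, 16400, 6781, 9215 and 49019 estimated counts in the same libraries.

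The second, ENSRNA022762585-T1 (298 bases), was the steadiest of the leading members. Its levels were 62724 TPM in the female tip, 77915 in the male tip, 88470 in the distal, 83588 in the medial, 74436 in the proximal section and 57766 in the whole hatchling, a span of 1.53-fold. It had the largest mean share of non-coding estimated counts, 22.3%, and ranked first by counts in 5 of the 6 libraries. In the sixth, the male tip, the longest member took that place.

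ENSRNA022762064-T1 and ENSRNA022762203-T1, both of 164 bases, had the same estimated count, effective length and TPM in every library. Each stood at 96161 TPM in the female tip, 83551 in the male tip, 57193 in the distal, 29357 in the medial, 48697 in the proximal section and 93818 in the whole hatchling. Summed, the pair held 19.2%, 16.7%, 11.4%, 5.87%, 9.74% and 18.8% of all TPM in those libraries. That sum exceeded the level of any single member in the female tip, the male tip, the distal section, the proximal section and the hatchling, while in the medial section the 298-base RNA was higher.

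ENSRNA022761390-T1 (255 bases), ENSRNA022761487-T1 (232 bases) and ENSRNA022761921-T1 (280 bases) had their highest level in the hatchling and their lowest in the distal section. The 255-base RNA stood at 27335 TPM in the female tip, 31943 in the male tip, 24950.5 in the distal, 47507 in the medial, 35760 in the proximal section and 52081 in the whole hatchling. The 232-base RNA stood at 23124, 34200, 18885, 35331, 30527 and 50569 TPM, and the 280-base RNA at 17764, 17916, 9191, 17414, 14049 and 27824 TPM, in the same order of libraries.

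ENSRNA022761708-T1 (256 bases) and ENSRNA022761464-T1 (302 bases) were instead highest in the distal section. The 256-base RNA stood at 12813 TPM in the female tip, 14461 in the male tip, 43639 in the distal, 33181 in the medial, 26517 in the proximal section and 18487 in the whole hatchling. The 302-base RNA stood at 21546, 18183, 45610, 23508, 17369 and 11693 TPM in the same libraries. For both, the distal value was more than 2-fold above that of either tip.

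ENSRNA022762638-T1 (244 bases) was highest in the male tip, with 27576 TPM in the female tip, 54411 in the male tip, 27558 in the distal, 8251 in the medial, 16430 in the proximal section and 14044 in the whole hatchling. ENSRNA022761197-T1 (194 bases) had its highest level in the proximal section and its lowest next to it on the same arm, with 20579 TPM in the female tip, 27533 in the male tip, 7416 in the distal, 3939 in the medial, 37486 in the proximal section and 28858 in the whole hatchling. ENSRNA022762639-T1 (164 bases) moved less, at 18354, 23419, 21416, 11896, 17997 and 26693 TPM in the same order.

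The pattern over the 6 libraries most like that of the 152-base RNA, by Pearson correlation of log2 TPM, was that of ENSRNA022761425-T1 (r = 0.84), followed by ENSRNA022761546-T1 (0.80), ENSRNA022762596-T1 (0.77) and the identical 164-base pair (0.76). These are descriptions over 6 libraries in which all values of a library share one scaling and 3 points share one animal.

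Annotated lengths of the members ran from 48 to 1177 bases, with a median of 189, against a median of 114 for the other non-coding RNAs (40 to 1397 bases) and 1059 for coding transcripts. Between 150 and 310 bases lay 28 of the 47, among them all of the leading 12, and 200 of the other 1724. Under 150 bases were 14 members and 1476 others, and over 310 bases were 5 members and 48 others.

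The longest member, ENSRNA022761000-T1 (1177 bases), showed how far the scale decides a rank. Its TPM was 6650 in the female tip, 13165 in the male tip, 6327 in the distal, 1987 in the medial, 4466 in the proximal section and 2438 in the whole hatchling, which placed it thirteenth by mean TPM. Its estimated counts were 84733, 158306, 50593, 22534, 54350 and 64309 in those libraries, the second largest share of non-coding counts, averaging 15.0%, against 1.00% of non-coding TPM. The 5 members with the largest mean share of counts were the 298-base RNA (22.3%), this 1177-base RNA (15.0%), the 255-base RNA (8.03%), the 302-base RNA (6.93%) and the 232-base RNA (5.55%).

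At the other end, the shortest member, ENSRNA022761376-T1 (48 bases), stood at 251 TPM in the female tip, 1605 in the male tip, 8252 in the distal, 2069 in the medial, 2885 in the proximal section and 175 in the whole hatchling. Only 44 and 72 estimated counts lay behind its values in the female tip and the hatchling, against 910 in the distal section. Of the 47, 13 had fewer than 50 estimated counts in at least 1 library and 3 had fewer than 20.

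**Figure D2:**
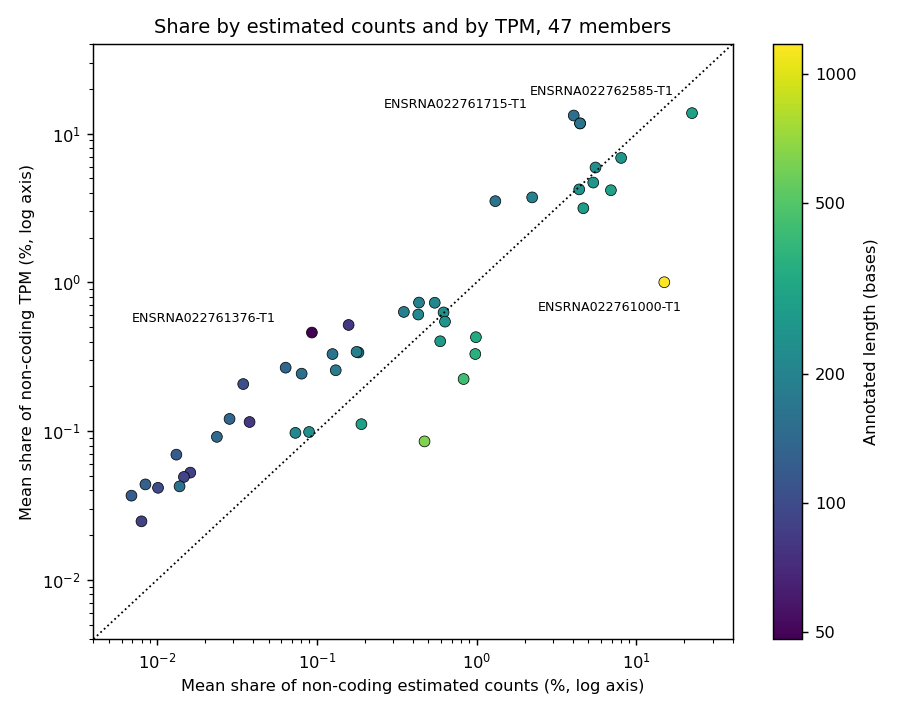
Mean share over the 6 libraries of the non-coding estimated counts (x axis, %) and of the non-coding TPM (y axis, %) for each of the 47 members, both on log axes, coloured by annotated length, with a dotted line of equality. The shortest RNAs lie above the line and the longest below it, with the 1177-base RNA farthest to the right of it at 15.0% of counts and 1.00% of TPM.

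Effective length stands for the number of positions at which a fragment could start on a target, here from a run with the bias flag on. As deposited it is no plain count of positions. For the 1177-base RNA it was 1189 bases in the proximal section to 1316 in the female tip, above the annotated length in every library. It was far below the annotated length for most members. Its median over the 47 was 27.8% of the annotated length in the female tip, 27.4% in the male tip, 26.6% in the distal, 26.7% in the medial, 26.3% in the proximal section and 25.9% in the whole hatchling. It was set by length alone among short targets: of 137 lengths shared by at least 2 non-coding targets, 129 had a single effective length in every library. The shortest length with differing values was 289 bases, so at shared lengths below it no correction by sequence shows.

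It also depended on the library, and not in one direction. At 164 bases it was 32.2 bases in the female tip, 30.8 in the male tip, 31.6 in the distal, 24.8 in the medial, 26.3 in the proximal section and 31.2 in the whole hatchling. At 104 bases the order turned, with 16.1, 17.8, 12.5, 25.3, 23.4 and 14.0 bases in the same libraries. The medial and proximal sections thus divided the reads of a 164-base RNA by a smaller number, and those of a 104-base RNA by a larger one, than did the other 4 libraries.

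Between 60 and 200 bases the smallest effective length was 13.8 bases, at a length of 116, in the female tip, 14.8 at 116 in the male tip, 12.04 at 111 in the distal, 16.6 at 126 in the medial, 16.8 at 125 in the proximal section and 12.9 at 114 in the whole hatchling. Among the shortest targets it was also small, at 40 bases 14.9 in the female tip, 13.6 in the male tip, 15.6 in the distal, 14.9 in the medial, 14.6 in the proximal section and 16.6 in the whole hatchling. When TPM was recomputed with the annotated length, 33 RNAs reached 100 TPM in every library, 31 of them among the 47. The 16 that were lost had 89 to 217 bases. The 298-base RNA then had the highest mean TPM and the 152-base RNA no longer led.

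**Figure D3:**
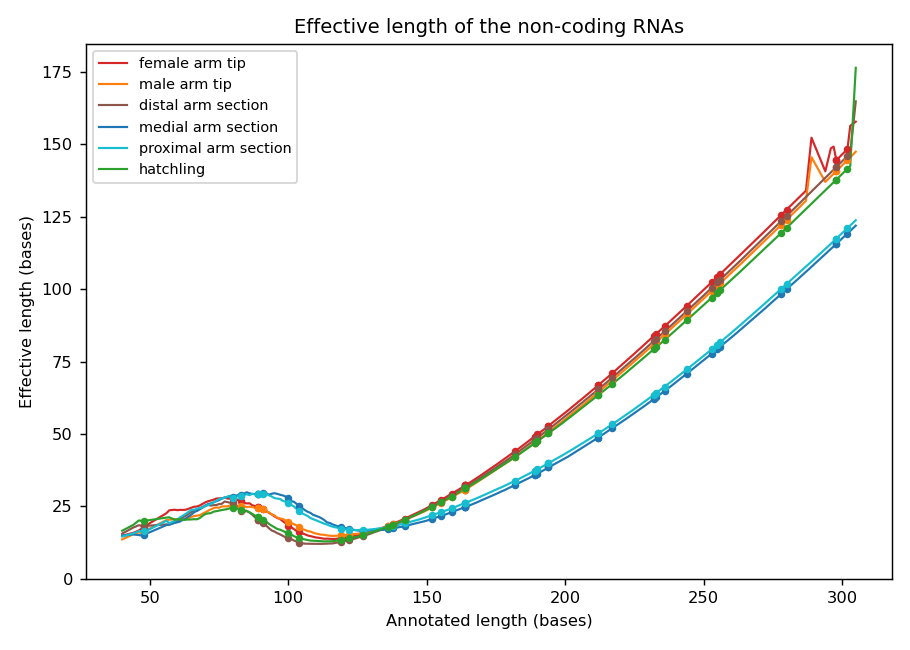
Effective length against annotated length (both in bases, up to 310) of the non-coding RNAs, 1 line per library, median over targets of equal length, with points at the members' lengths. The curves dip between 111 and 126 bases, and the medial and proximal sections run above the other libraries at 104 bases and below them from 164 bases on.

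Targets of one length with equal values in every library were searched as sets. The search ran over all non-coding targets, and required the estimated count, effective length and TPM to agree within a relative tolerance of 0.0001 in every library. There were 68 sets with 239 targets. In 27 sets, with 83 targets, the count per target was a whole number in every library, at most 2, so that equal values need not mark shared reads, and 20 of these sets were above 0 in 1 library only. The other 41 sets, with 156 targets, had fractional counts, as divided reads give. Of the 41, 12 were above 0 in every library, and 1 held members, the 164-base pair ENSRNA022762064-T1 and ENSRNA022762203-T1. The reads of that pair could not be told apart, with 60038 estimated counts between them in the female tip, 50329 in the male tip, 22324 in the distal, 13511 in the medial, 26181 in the proximal section and 120980 in the whole hatchling.

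The largest sets were far from abundant. A set of 13 copies of 73 bases, led by ENSRNA022756786-T1, stood at 1.75 TPM per copy in the female tip, 0.968 in the male tip, 0 in the distal, 0.544 in the medial, 0.285 in the proximal section and 0.279 in the whole hatchling. The next were 12 targets of 72 bases (ENSRNA022757229-T1), 10 of 74 bases (ENSRNA022756809-T1) and 9 of 74 bases (ENSRNA022757259-T1), each at 0 in at least 1 library. A set of 9 targets of 119 bases (ENSRNA022761251-T1) held 1 whole count per target in the female tip and 0 in every other library, and so gives no sign of shared reads.

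Because the rule took each target by itself, some sets of copies that missed it one by one reached it in sum. Summed over their copies, 5 sets reached 100 TPM in every library, and 4 of them, with 10 targets, held no member. These 4 were singled out after their values were seen, apart from the first, which lies just outside the minimum. ENSRNA022762138-T1, ENSRNA022762201-T1 and ENSRNA022762202-T1, of 164 bases, summed to 970 TPM in the female tip, 2550 in the male tip, 619 in the distal, 285 in the medial, 521 in the proximal section and 2855 in the whole hatchling. The lowest sums were 173 TPM for 3 copies of 69 bases led by ENSRNA022762119-T1, 190 TPM for the 63-base pair ENSRNA022762246-T1 and ENSRNA022762247-T1, and 148 TPM for the 125-base pair ENSRNA022762503-T1 and ENSRNA022762504-T1.

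Equal length alone did not give equal values. The members had 39 distinct lengths, and 12 members were the only non-coding target of their length. At 6 lengths there was more than 1 member, 14 members in all. Of the 18 targets of 164 bases, 16 were detected in at least 1 library, and the 4 members held 98.1% to 99.5% of the TPM of that length.

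Among those 4, the levels ran roughly in parallel. The identical RNAs were each 2.47 to 5.24 times as high as ENSRNA022762639-T1, depending on the library, and 29.2 to 47.5 times as high as ENSRNA022762640-T1. The last stood at 2025 TPM in the female tip, 2263 in the male tip, 1960 in the distal, 897 in the medial, 1261 in the proximal section and 3104 in the whole hatchling. All 4 were lowest in the medial section.

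The 194-base RNAs ENSRNA022761197-T1 and ENSRNA022761668-T1 also moved together, at a ratio of 3.34 to 7.45 (r = 0.96 over the 6 libraries). The second stood at 6169 TPM in the female tip, 4557 in the male tip, 1319 in the distal, 627 in the medial, 8045 in the proximal section and 3875 in the whole hatchling. Both were highest in the proximal and lowest in the medial section.

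At 189 and at 212 bases the members of a length went different ways. ENSRNA022762596-T1 was 42.6 times as high as ENSRNA022762636-T1, also of 189 bases, in the female tip, 10.2 times in the male tip, 1.41 times in the distal, 0.497 times in the medial, 0.741 times in the proximal section and 3.28 times in the whole hatchling. At 212 bases the ratio of ENSRNA022761860-T1 to ENSRNA022762370-T1 was 6.45, 2.50, 0.130, 1.15, 1.04 and 5.17 in the same libraries. The first of each pair was the higher one in both tips and the hatchling, and at 212 bases the order was reversed in the distal section. Since effective length is one value per length here, these ratios do not depend on it. The remaining pairs were apart throughout at 298 bases, where the ratio of ENSRNA022762585-T1 to ENSRNA022761381-T1 was 46.9 to 191, and close at 89 bases, where that of ENSRNA022762286-T1 to ENSRNA022762542-T1 was 0.819 to 3.63.

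**Figure D4:**
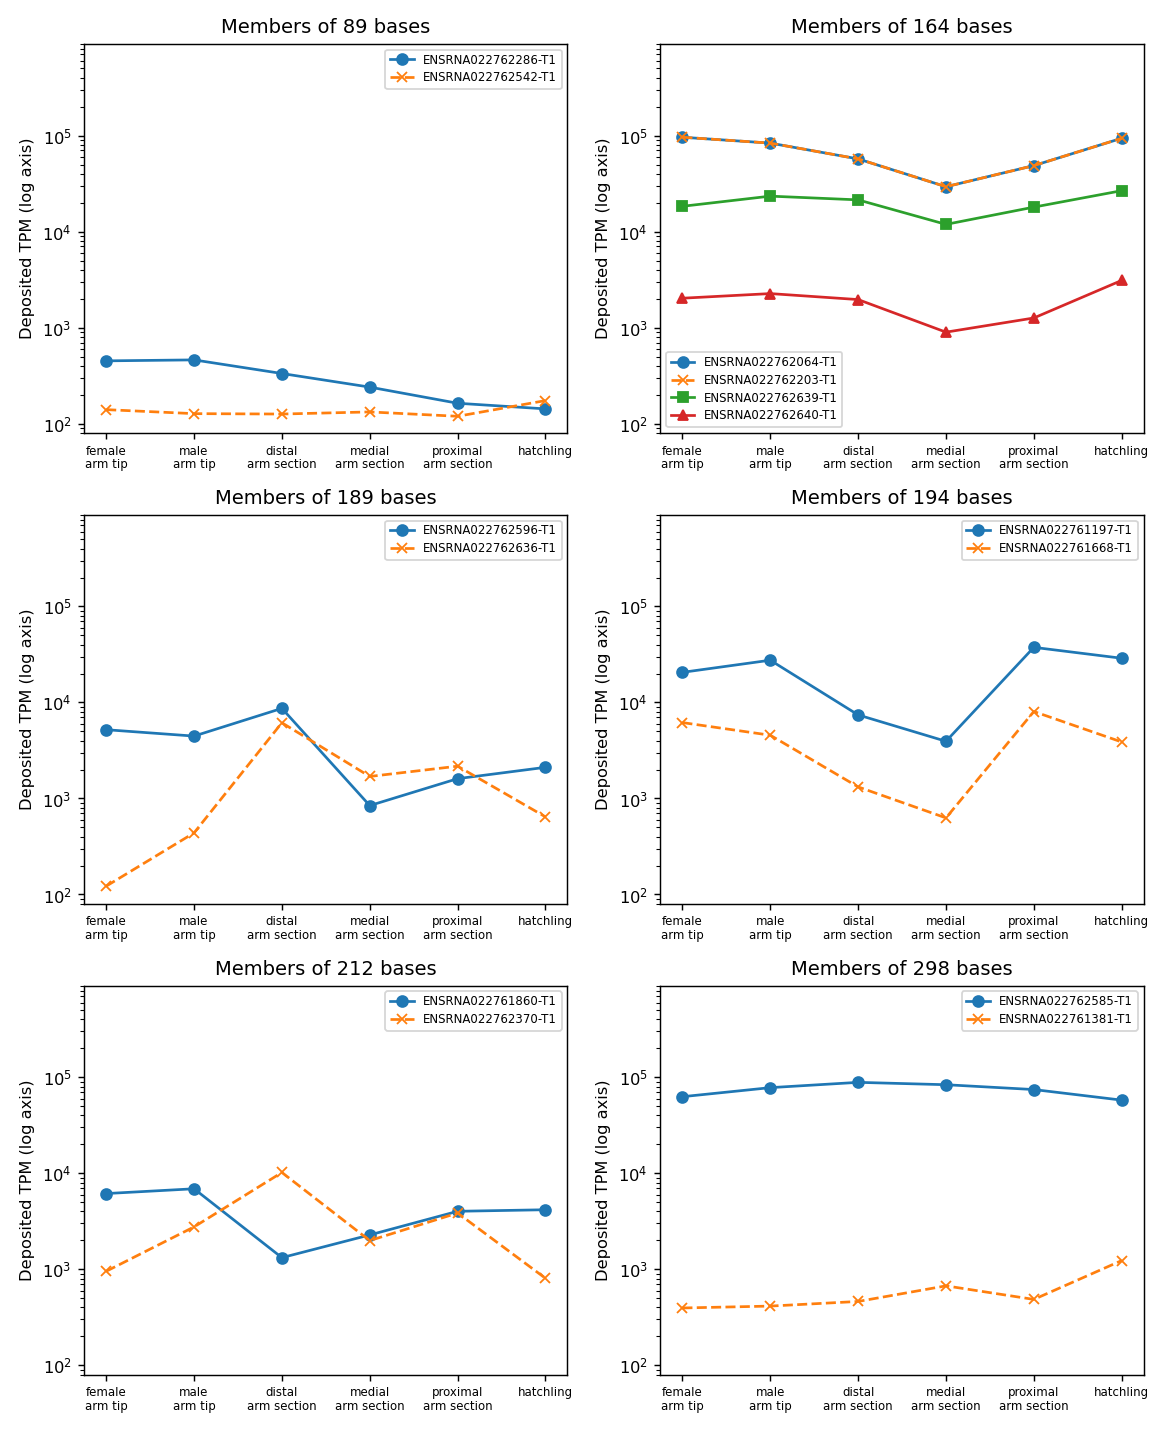
Deposited TPM (log axis) by library of the 14 members that share their length with another member, 1 panel per length and 1 line per RNA. The 2 identical RNAs of 164 bases overlie each other at 29357 to 96161 TPM, those of 194 bases run in parallel, and those of 189 and 212 bases cross.

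At 27 lengths a member stood beside other non-coding targets of that length. It held over 95% of the TPM of the length in every library at 14 of them, and under 60% in some library at 7. The extreme was 119 bases, with 316 targets, 136 of them detected, where the member ENSRNA022761471-T1 held 12.02% to 32.8% of the TPM. Estimated counts were whole numbers, within 0.001, in every library for 13 members and in none for 21, and fractional counts mark reads that were divided with other targets.

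The minimum of 100 TPM fell among values that, with the exception of ENSRNA022761936-T1, counting error does not separate from it. The 5 RNAs just inside had as lowest level 115 TPM (ENSRNA022762463-T1, interval 74.3 to 177), 109 TPM (ENSRNA022761425-T1, 72.2 to 166), 108 TPM (ENSRNA022761936-T1, 101 to 114), 104 TPM (ENSRNA022761452-T1, 71.7 to 152) and 103 TPM (ENSRNA022761050-T1, 73.0 to 145). Just outside were ENSRNA022762288-T1 at 99.8 TPM (62.4 to 152), ENSRNA022761252-T1 at 98.0 TPM (65.7 to 141) and the 3 identical 164-base RNAs above at 95.1 TPM (63.1 to 145). For 7 members the interval of the lowest level reached under 100, and for all 5 outside it reached 100. Of the 17 RNAs that passed in exactly 5 libraries, 2 failed in the male tip, 8 in the medial section and 7 in the hatchling.

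Across the libraries the levels of a member typically spanned several-fold. The highest over the lowest TPM had a median of 4.19, with a range of 1.46 to 63.3. It was at least 2 for 45 of 47 and at least 10 for 13 of 47. For the 180 coding transcripts with at least 100 TPM in every library the median was 3.51 (1.11 to 52.7), and 159 reached 2 and 10 reached 10. For the 208 other non-coding RNAs detected in every library the median was 7.02 (2.07 to 10285). The distal section was the highest library for 16 members, the female tip, the male tip and the hatchling for 9 each, the proximal section for 3 and the medial section for 1, while the lowest was the medial section for 16 and the hatchling for 14.

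Ratios between libraries were taken of TPM + 1 on the log2 scale, among targets with at least 1 TPM on either side, and an RNA is called higher or lower past 2-fold (the plot of ratios). On a short RNA 1 read can exceed 1 TPM, as at 119 bases in the female tip, where 1 count gave 7.36 TPM. Calls among the other non-coding RNAs can therefore rest on a single read. The rule used the same TPM values, and an RNA that is nearly absent from one library could not be a member. TPM adds to 1000000 per library, so a larger share held by the members leaves less for all other targets: scaling to the coding total would multiply the TPM by 2.74 in the female tip, 2.60 in the male tip, 2.74 in the distal, 1.66 in the medial, 1.90 in the proximal section and 2.73 in the whole hatchling. In bulk libraries fewer cells of a type and less RNA per cell cannot be told apart.

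Between the tips, the female tip over the male tip, 3 members were higher and 9 lower, 6.38% and 19.1% of the 47. Of all 28178 targets compared 7.83% were higher and 6.11% lower, of the 180 abundant coding transcripts 6 and 14, and of 667 other non-coding RNAs 181 and 187. The median log2 ratio of the members was -0.03, against -0.02 for the other non-coding RNAs and 0.06 over all targets. Higher were the 152-base ENSRNA022761715-T1 (log2 ratio 1.22), ENSRNA022761896-T1 (1.53) and ENSRNA022761583-T1 (1.55), and all 3 stayed so under each scaling tried. For the tips the scalings moved the members' median only between -0.16 and 0.04, so this is a weak check.

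ENSRNA022761896-T1 (278 bases) stood at 2622 TPM in the female tip and 907 in the male tip. ENSRNA022761583-T1 (142 bases) stood at 1271 TPM in the female tip, from 255 estimated counts, and 433 TPM in the male tip, from 86.2. The lowest ratios were those of ENSRNA022761547-T1 (217 bases; -2.93), with 127 TPM in the female tip and 977 in the male tip, the 48-base ENSRNA022761376-T1 (-2.67), with 251 TPM in the female and 1605 in the male tip, and ENSRNA022762636-T1 (189 bases; -1.83), with 122 TPM in the female and 438 in the male tip. Of the 9 lower members, 8 were lower under each scaling tried. With 1 tip per sex, animal and sex cannot be told apart.

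**Figure D5:**
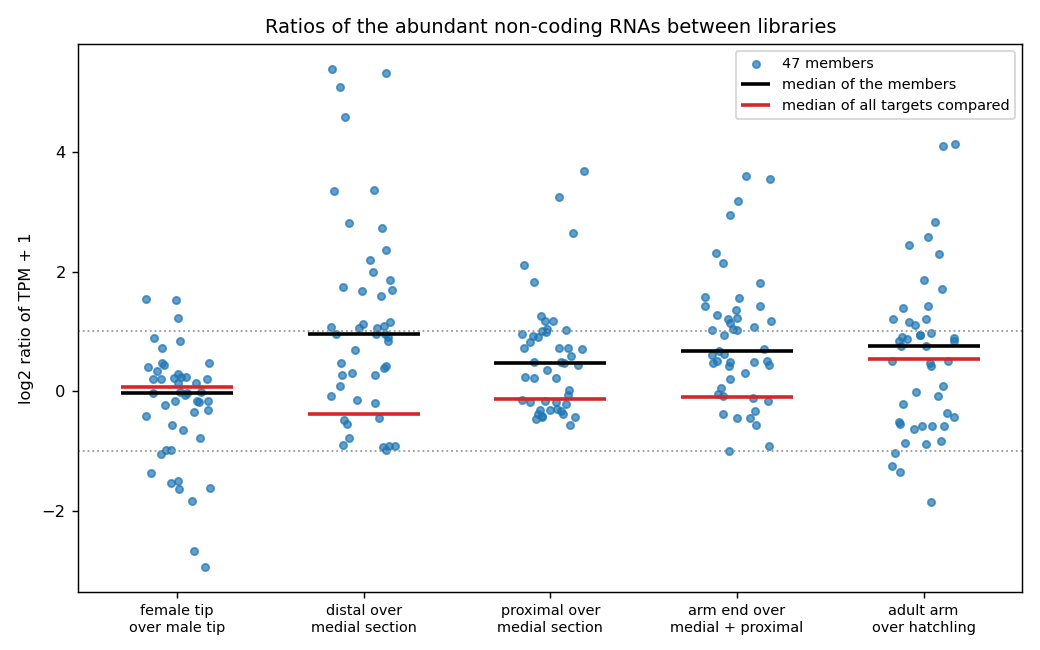
log2 ratio of TPM + 1 for the 47 members in 5 comparisons, 1 point per RNA, with the median of the members (black), the median of all targets compared (red) and dotted lines at 2-fold; the arm-end and adult-arm ratios are of mean TPM + 1. In the distal over the medial section the members' median is 0.96, against -0.38 for all targets, and the highest member reaches 5.39.

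Along the arm of OB-5, the distal section stood apart from the medial one. In the distal over the medial section, 22 of the 47 members were higher and 0 lower, against 5.89% higher and 17.3% lower among all 26750 targets compared. Of the other non-coding RNAs compared, 185 of 542 were higher and 198 lower, and of the abundant coding transcripts 2 of 180 were higher and 54 lower. The median log2 ratio was 0.96 for the members, 0.07 for the other non-coding RNAs and -0.38 for all targets.

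The highest ratios were those of ENSRNA022761425-T1 (155 bases; 5.39), ENSRNA022762586-T1 (104 bases; 5.32) and ENSRNA022761105-T1 (190 bases; 5.09). ENSRNA022761425-T1 stood at 4603 TPM in the distal and 109 in the medial section, from 752 estimated counts in the distal and 21.9 in the medial library. ENSRNA022762586-T1 stood at 5136 TPM (396 counts) in the distal and 128 TPM (30.0 counts) in the medial section, and ENSRNA022761105-T1 at 8844 TPM (2657 counts) in the distal and 258 TPM (87.0 counts) in the medial section. Part of the ratio of the 104-base RNA lies in its effective length, 12.5 bases in the distal and 25.3 in the medial section, and by counts over the library total its log2 ratio was 4.47.

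The lowest were ENSRNA022761485-T1 (233 bases; -0.98), with 380 TPM in the distal and 749 in the medial section, the 255-base ENSRNA022761390-T1 (-0.93) and ENSRNA022761896-T1 (-0.92). None of these reached 2-fold. The direction of the whole depends on the scale. The median over all targets moved to -1.01 when TPM was scaled to the non-coding total and to 0.22 with the coding total. With TMM factors it was -0.44. These factors came from estimated counts but were applied to deposited TPM, so this is no TMM normalization of the counts. The members' median moved to 0.29, 1.68 and 0.89 in the same order. Relative to all targets the members' median was above by 1.30, 1.46 and 1.32. Each of these scalings multiplies all targets of a library by the same factor. Apart from the pseudocount this gap therefore cannot change, and it is no check on the scaling.

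Scaled to the non-coding total, 14 members were higher and 9 lower. The members held 96.3% to 97.1% of that total. On this scale, here and in the later comparisons, a rise of some members therefore has to go with a fall of others. A total of 14 members were higher under each of the 5 scalings, among them ENSRNA022762638-T1 of the leading 12 and the 3 just named as highest. The 5 are the deposited TPM itself, the TMM, coding and non-coding scalings, and TPM with annotated lengths. All but the last apply a single factor per library. Passing each is thus mostly a stricter cut on the same ratios, not 5 separate checks. On the scale of estimated counts over the library total, which ignores effective length, 27 members were higher and 0 lower, with a median log2 ratio of 1.67. Of 25339 targets compared on that scale 9.43% were higher and 7.08% lower, with a median of 0.03, and the other non-coding RNAs had a median of 0.48. Of 163 other non-coding RNAs compared on it, 45 were higher and 8 lower.

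The distal section was at least 2-fold above each of the other 5 libraries for 8 of the 47 members, against 1.21% of the 31111 targets with at least 1 TPM in some library. It was so for 68 of 838 other non-coding RNAs (8.11%) and 0 of the 180 abundant coding transcripts. These 8 were singled out after their values were seen. The widest gap was that of ENSRNA022762220-T1 (80 bases), with 1140 TPM in the female tip, 2367 in the male tip, 12547 in the distal, 522 in the medial, 861 in the proximal section and 1569 in the whole hatchling. ENSRNA022761105-T1 followed, with 645, 1977, 8844, 258, 584 and 140 TPM, and ENSRNA022762586-T1, with 536, 1375, 5136, 128, 257 and 249 TPM, in the same libraries. The other 5, ENSRNA022762370-T1, ENSRNA022761546-T1, ENSRNA022761376-T1, ENSRNA022762636-T1 and ENSRNA022761936-T1, stood in the distal section at 2.22 to 2.86 times the next highest library. The distal library was also the one with the fewest counts, and the part of depth in these gaps was not tested.

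The proximal over the medial section gave 11 members higher and 0 lower, against 4.87% and 6.82% of 26733 targets. Of the other non-coding RNAs 165 of 558 were higher (29.6%) and 159 lower, against 23.4% of the members higher. That order was reversed by counts over the library total, where 18 of 144 other non-coding RNAs were higher and 5 lower, against 14 and 0 of the 47 members. The median log2 ratio was 0.48 for the members, -0.04 for the other non-coding RNAs and -0.13 for all targets. This comparison shares the medial library with the previous one. Highest were the 194-base RNAs ENSRNA022761668-T1 (3.68) and ENSRNA022761197-T1 (3.25), whose levels in the distal section lay between the other 2 sections, and ENSRNA022761713-T1 (136 bases; 2.64), with 1514 TPM in the proximal and 242 in the medial section.

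The lowest were ENSRNA022762286-T1 (89 bases; -0.56), ENSRNA022761381-T1 (298 bases; -0.47) and ENSRNA022761896-T1 (-0.44). The 11 included 6 that were higher under each of the 5 scalings. Scaled to the non-coding total, 6 were higher and 0 lower.

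For the arm end, the values of the female tip, the male tip and the distal section were set against those of the medial and proximal sections, and a member was counted when the 2 sets did not overlap and their means differed 2-fold. So counted, 15 members were higher and 0 lower, against 4.05% and 10.6% of 27674 targets. Of the abundant coding transcripts 2 of 180 were higher and 59 lower. The median log2 ratio was 0.67 for the members and -0.09 for all targets. For the other non-coding RNAs it was 0.73, with 89 of 768 higher and 34 lower.

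The highest ratios belonged to ENSRNA022762586-T1 (3.60), ENSRNA022761425-T1 (3.54) and ENSRNA022761105-T1 (3.18), each with its highest arm level in the distal section. Among the leading 12, ENSRNA022761715-T1, both RNAs of the identical pair and ENSRNA022762638-T1 were higher. The identical pair, for instance, stood at 57193 to 96161 TPM in the 3 libraries of the arm end and at 29357 and 48697 TPM in the medial and proximal sections, without overlap.

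The lowest were ENSRNA022761924-T1 (138 bases; -1.002), with 348 TPM in the female tip, 294 in the male and 823 in the distal section against 368 in the medial section and 1590 in the proximal one, ENSRNA022761485-T1 (-0.92) and ENSRNA022761390-T1 (-0.57). The sets overlapped for ENSRNA022761924-T1. Only 6 of the 15 were higher under each of the 5 scalings, and scaled to the non-coding total the counts were 7 higher and 3 lower. The arm end joins 3 animals and the inner sections come from 1 of them, so animal and position cannot be told apart.

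Between the adult arm and the hatchling little held in all 5 adult libraries at once. Counting only RNAs at least 2-fold higher, or lower, in every adult library than in the hatchling, 1 member was higher and 1 lower, against 3.7% and 3.18% of 27404 targets, which is near the background. Of the abundant coding transcripts 31 of 180 were higher and 1 lower. The median log2 ratio of the mean adult level to the hatchling level was 0.75 for the members, 1.15 for the other non-coding RNAs and 0.54 for all targets.

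The higher one was ENSRNA022762601-T1 (442 bases), with 1057 TPM in the female tip, 3000 in the male tip, 1778 in the distal, 549 in the medial, 1129 in the innermost (proximal) section, against 210 in the hatchling. The lower one was ENSRNA022761713-T1 (136 bases), with 1637, 995, 1116, 242 and 1514 TPM in the adult libraries in that order, against 3967 in the hatchling. Neither held under all scalings: with the coding total 0 were higher and 2 lower, and with the non-coding total 4 were higher and 0 lower.

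The highest mean ratios were those of ENSRNA022761105-T1 (4.13) and ENSRNA022761376-T1 (4.10). Neither was 2-fold above the hatchling in every adult library: ENSRNA022761105-T1 had 8844 TPM in the distal and 258 in the medial section against 140 in the hatchling, and ENSRNA022761376-T1 had 251 TPM in the female tip and 8252 in the distal section against 175 in the hatchling. The other low ratios were those of ENSRNA022761381-T1 (-1.34), with 395 TPM in the female tip, 414 in the male tip, 462 in the distal, 672 in the medial, 485 in the innermost (proximal) section, against 1232 in the hatchling, and ENSRNA022761425-T1 (-1.25), whose 4603 TPM in the distal section exceeded the 2942 TPM of the hatchling while the other adult libraries lay between 109 and 800 TPM.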

How the data were processed

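The authors depleted rRNA from total RNA, trimmed reads with Trimmomatic 0.36 after FastQC 0.11.5, ran Fastp against poly-G tails on the hatchling library alone, and obtained abundances from Kallisto with its bias flag against the annotated transcripts. The Kallisto version is not given in the sources used here. The deposited files hold an estimated count, a length, an effective length and a TPM per target, computed by the authors. Deposited TPM was used for all levels and ratios, with a pseudocount of 1 TPM. The hatchling reads were thus trimmed by an extra step, whose effect was not tested.

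The 47 members and all comparisons were chosen with earlier results of these data known. The RNAs named are the 12 with the highest mean TPM, the shortest and longest member, the 3 highest and 3 lowest ratios of each comparison, the first RNA of the 5 largest identical sets, the 5 on each side of the minimum and the 5 largest shares of counts. Others are named as chosen after their values were seen, as are those of shared length.

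The software was Python 3.11.15 with the packages numpy 2.4.6, pandas 2.3.3, scipy 1.17.1 and, for plots, matplotlib 3.10.9. The TMM alternative used edgeR 4.0.16 (R version 4.3.3), for which estimated counts of all targets were rounded to integers, and no model was fitted. The deposited TPM was divided by the factors found from these counts, so the TMM results are not normalized counts. The search for identical sets and the counting of 2-fold differences were tested on simulated data. A table of RefSeq genes (assembly ASM119413v2) held 0 of the 1771 identifiers, so no names, coordinates or sequences are given. Alternatives were other minimum levels, fold thresholds, pseudocounts, tolerances, lengths and scalings, and leaving out each library.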

Additional observations from a re-analysis of the deposited data

How the results depend on the processing

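The number of RNAs past the minimum in every library was 47. It was 76 with a minimum of 50 TPM and 79 after scaling to the coding total, but 32 with 200 TPM, 33 with annotated lengths and 44 when 20 estimated counts were also required. Leaving out 1 library at a time gave 47 to 55, the highest without the medial section. The members' share of non-coding TPM (female tip, male tip, distal, medial, proximal section, hatchling) was 97.2%, 96.9%, 96.7%, 97.3%, 97.2% and 97.8% with annotated lengths. Over non-coding targets with at least 5 estimated counts it was 97.6%, 96.8%, 97.0%, 97.7%, 97.6% and 97.4%. With ENSRNA022761715-T1 kept in the non-coding total, the other members held 76.3%, 87.1%, 79.6%, 88.2%, 88.5% and 82.1% of that total. The drop is thus the share of that RNA itself. The identical pair was found under each tolerance tried. With a 4-fold threshold, 0 members were higher and 2 lower in the female over the male tip, 10 higher in the distal and 4 higher in the proximal over the medial section, 6 higher at the arm end, and 0 higher and 0 lower in the adult arm over the hatchling. Scaled to the non-coding total, the counts were 14 higher and 9 lower in the distal over the medial section, 6 higher in the proximal over the medial section, 7 higher and 3 lower at the arm end, and 4 higher and 0 lower in the adult arm. Scaled to the coding total, 26 were higher at the arm end, and 0 were higher and 2 lower in the adult arm. With TMM factors, 2 were lower in the distal over the medial section, 1 at the arm end and 2 in the adult arm. With annotated lengths 0 were higher and 2 lower in the adult arm. With the coding total 32 were higher in the distal and 16 in the proximal over the medial section. Of all results computed under an alternative, 50 stayed and 42 moved. A count stayed if it was within 1.5 times the reported one. A share stayed if it differed by no more than the half-width of its interval, and every alternative share moved. No paired analysis was possible because each condition is 1 library. Depth limits most the members with fewer than 20 estimated counts in a library (ENSRNA022762463-T1, ENSRNA022762542-T1 and ENSRNA022761452-T1). No spread between animals could be measured, and why the counts of calls move with the scaling was not tested beyond the scalings themselves.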
